A study of Mus musculus with 4 samples.

Results

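The genes described here are Dmd, Utrn, Dag1, Lama2, Itgb1 and Capn3, which encode dystrophin, its relative utrophin and proteins that anchor or maintain the muscle fibre membrane. They were chosen by name, with earlier results of these data known, among the genes that occur in the deposited table of 1000 genes. The series measured mRNA and ribosome footprints, the mRNA fragments that ribosomes protect from nuclease, in frozen tibialis anterior, a fast muscle of the lower leg. Every mouse carried the Dmd Dup2 allele, in which exon 2 of dystrophin is duplicated, and there was no wild-type group. Treated muscle came from mice given scAAV9.U7-ACCA, an AAV9 vector with a self-complementary genome whose U7 small nuclear RNA was made to skip an exon, and control muscle came from untreated mice of the same genotype. There was 1 library in each of the groups mRNA treated, mRNA untreated, footprints treated and footprints untreated. The number, age and sex of the animals behind a library, any pooling, the vector dose and the time after injection are not stated in the labels.

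In a muscle fibre, dystrophin binds cytoskeletal actin at one end and the transmembrane protein dystroglycan at the other, and dystroglycan in turn holds laminin of the basement membrane, so that the chain carries force across the membrane. Utrophin can take the place of dystrophin in this chain and is known from the neuromuscular junction and from regenerating fibres. Integrins that contain the beta chain encoded by Itgb1 form a parallel laminin receptor, and the calcium-dependent protease calpain 3 sits on titin inside the fibre. Loss of dystrophin, the laminin chain of Lama2 or calpain 3 causes muscular dystrophy in humans.

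Promoter sequences, taken from RefSeq with its build, are shown for Dmd and Capn3, the genes of this set whose footprints were higher in treated muscle, and for Lama2, whose footprints were lowest relative to the untreated library. All 6 genes matched the promoter table by symbol, with 9 windows between them. Each window holds 250 bases before and 50 bases after a transcription start and is written 5′ to 3′ along the gene. Capitals mark a CArG box, the motif named for serum response factor, or a MEF2 site, the motif of a family of muscle transcription factors.
Dmd promoter window, chrX:82948620-82948919, plus strand, GRCm38.p6: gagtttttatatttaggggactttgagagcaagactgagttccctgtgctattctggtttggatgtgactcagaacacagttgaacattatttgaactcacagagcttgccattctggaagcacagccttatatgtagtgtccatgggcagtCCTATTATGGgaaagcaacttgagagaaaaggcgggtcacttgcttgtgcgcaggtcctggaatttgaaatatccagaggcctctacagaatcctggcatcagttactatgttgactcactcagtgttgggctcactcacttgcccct
Capn3 promoter window, chr2:120463343-120463642, plus strand, GRCm38.p6: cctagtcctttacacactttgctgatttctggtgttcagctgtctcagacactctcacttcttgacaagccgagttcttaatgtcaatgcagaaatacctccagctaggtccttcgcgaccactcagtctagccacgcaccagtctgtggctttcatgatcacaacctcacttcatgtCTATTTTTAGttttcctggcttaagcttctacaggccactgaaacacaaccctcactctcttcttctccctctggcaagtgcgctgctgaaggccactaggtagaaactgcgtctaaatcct
Lama2 promoter window, chr10:27616893-27617192, minus strand, GRCm38.p6: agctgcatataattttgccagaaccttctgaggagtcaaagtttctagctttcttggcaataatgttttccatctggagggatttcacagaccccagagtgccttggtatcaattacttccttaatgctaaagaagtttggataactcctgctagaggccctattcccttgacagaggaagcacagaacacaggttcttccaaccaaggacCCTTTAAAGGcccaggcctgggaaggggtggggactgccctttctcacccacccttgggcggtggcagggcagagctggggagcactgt
Dmd and Capn3 each have 2 windows in the table, of which the first is shown, and the transcript that each window belongs to is not given there. The second windows of both held neither motif. The first Dmd window held a CArG box that began 98 bases before the start and the Lama2 window held a CArG box that began 39 bases before it. The first Capn3 window held a MEF2 site that began 72 bases before the start. Among 32544 distinct promoter windows of the same length, 1.64% held a CArG box and 0.559% a MEF2 site, read on both strands. The E-box CANNTG, the motif of myogenic regulators, occurred 3 times in the Dmd window shown, 2 times in that of Capn3 and 1 time in that of Lama2, and 72.3% of all windows held at least 1. The first windows of Utrn, Dag1 and Itgb1 held neither a CArG box nor a MEF2 site. A match is a description of the letters and was not tied to binding of any factor.

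The listed genes held 4248818 reads in treated mRNA, 125236 in untreated mRNA, 1664122 in treated footprints and 3349015 in untreated footprints. The untreated mRNA library was thus the shallowest by far, and the 6 genes had only 16 to 35 reads in it, against 703 to 1959 in treated mRNA. They had 172 to 699 reads in treated footprints and 80 to 2114 in untreated footprints. The table is sorted by untreated mRNA count, from high to low, and ends at 14 reads. Its median gene had 25 reads in that library, which is also the count of Dmd, and 521 other genes had between 16 and 35. Levels are given as CPM, read counts brought to a common library size. Markers of mature fast fibre were listed for 12 of 13 symbols and summed to 255162 CPM in treated mRNA and 176158 in untreated mRNA. Of these 12, 5 were called higher and 0 lower by the rule given below, but 0 higher and 4 lower with the listed totals as scaling. None of the listed markers was at 0 in any library. Fibroblast markers summed to 3550 in treated and 16466 in untreated mRNA (6 of 9 symbols listed). That sum was carried by the collagen genes Col1a1, Col1a2 and Col3a1, which were called lower, while Dcn and Fbn1 were called higher and Lum was not called. In footprints 5 of the 6 fibroblast markers were called lower and 0 higher. Macrophage markers summed to 208 in treated and 996 in untreated mRNA (4 of 13 listed), and all 4 were called lower in mRNA and in footprints under the 6 scalings tried. Of markers of immature and regenerating fibre 4 of 10 were listed, with 0 called higher and 2 lower in mRNA and in footprints. Slow fibre markers, 4 of 8 listed, had 1 called higher and 2 lower in mRNA, and 0 higher and 2 lower in footprints. Utrn, Lama2, Itgb1 and Dag1 are also expressed by cells outside the fibre, and in these bulk libraries fewer cells of a type cannot be told apart from less RNA per cell. The part of these shifts in the results below was not tested.

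Read counts were scaled between libraries by TMM (trimmed mean of M-values) over the listed genes, and each ratio is treated over untreated with a 95% interval from the counts alone. With 1 library per group there is no replicate check and no test between conditions. A call of higher or lower required a ratio of at least 1.5-fold, an interval that excluded 1 and at least 50 reads over the pair of libraries. A call is therefore a statement on this pair of libraries and not on the treatment. The 6 genes all passed the minimum of 50 reads.

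Dmd, whose product is missing or reduced in this model, had 1959 reads in treated mRNA and 25 in untreated mRNA, which is 580 and 160 CPM. Its footprints numbered 183 in the treated library and 80 in the untreated one, or 111 and 23.5 CPM. Both readouts were higher in treated muscle, and the counting intervals of the treated and untreated levels did not overlap in either. The mRNA ratio was 3.63 (2.45 to 5.63) and the footprint ratio 4.74 (3.62 to 6.24). Dmd footprints stood at percentile 99.4 of all genes compared in footprints, and Dmd mRNA at percentile 93.0 of those compared in mRNA. Both percentiles are among the listed genes only, and genes with fewer than 14 untreated mRNA reads are not listed. The table counts reads per gene under the RefSeq identifier NM_007868, so it shows neither which exons were covered nor whether exon 2 was skipped, and the labels do not say how reads of the shorter dystrophin products were counted.

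**Figure D1:**
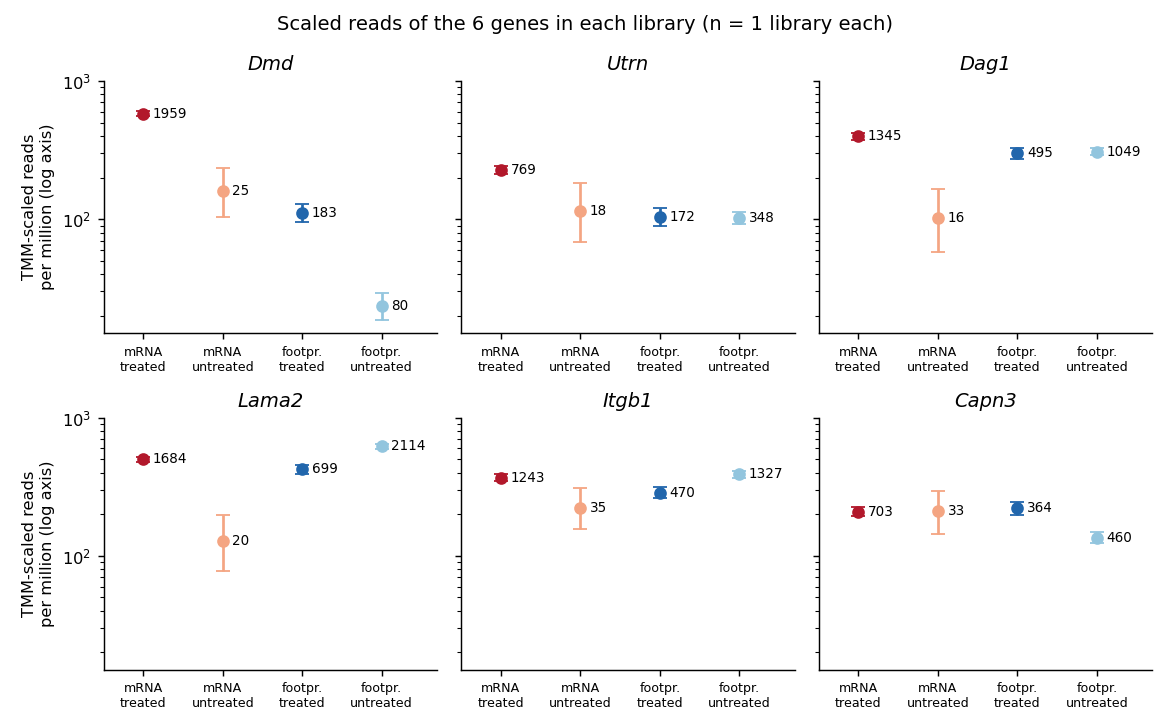
TMM-scaled CPM (log axis) of each gene in the 4 libraries, with exact Poisson 95% intervals and the raw read count beside each point. Dmd footprints are at 111 in the treated and 23.5 in the untreated library, while the other genes differ less in footprints than Dmd does.

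Utrn, the gene of utrophin, had 769 reads in treated mRNA and 18 in untreated mRNA, or 228 and 115 CPM. In footprints it had 172 reads in the treated and 348 in the untreated library, and after scaling both levels were near 100, at 105 and 102. The mRNA intervals of the treated and untreated libraries did not overlap, while the footprint intervals did. The mRNA ratio was 1.98 (1.25 to 3.36), called higher, and the footprint ratio was 1.02 (0.847 to 1.23). The mRNA call ended under 3 other scalings, at 1.26 (0.791 to 2.14) with the listed totals, 1.504 (0.945 to 2.55) with the upper quartile and 1.08 (0.676 to 1.82) with the deposited constants. Measured in reads of the same library, Dmd had 1.06 footprints for each Utrn footprint in treated muscle and 0.230 in untreated muscle. In mRNA it had 2.55 Dmd reads for each Utrn read in treated muscle and 1.39 in untreated muscle. This within-library ratio does not depend on scaling. It was 4.61-fold higher in treated footprints (3.35 to 6.34) and 1.85-fold higher in treated mRNA (1.01 to 3.38).

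Dag1, which encodes both parts of dystroglycan, had 1345 reads in treated mRNA and 16 in untreated mRNA, or 398 and 102 CPM. Its footprints numbered 495 in the treated and 1049 in the untreated library, or 301 and 308 CPM. The mRNA levels were far apart and the footprint levels nearly equal, with overlapping intervals. The mRNA ratio was 3.90 (2.39 to 6.84) and the footprint ratio 0.977 (0.876 to 1.09). With the deposited constants the footprint ratio was 0.809 (0.726 to 0.901), also not called.

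Lama2, the laminin alpha chain of the fibre's basement membrane, went opposite ways in mRNA and in footprints. It had 1684 reads in treated mRNA and 20 in untreated mRNA, or 499 and 128 CPM. Its footprints numbered 699 in the treated and 2114 in the untreated library, or 425 and 621 CPM. The mRNA ratio was 3.91 (2.52 to 6.41), called higher, whereas the footprint ratio was 0.685 (0.628 to 0.746). The footprint interval lay below 1, but the ratio was just short of the 1.5-fold threshold, and it was called lower with the listed totals at 0.665 (0.610 to 0.725), with the upper quartile at 0.631 (0.579 to 0.688) and with the deposited constants at 0.567 (0.520 to 0.618).

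Itgb1, the shared beta chain of the laminin-binding integrins, had 1243 reads in treated mRNA and 35 in untreated mRNA, or 368 and 223 CPM. Its footprints numbered 470 in the treated and 1327 in the untreated library, or 286 and 390 CPM. The mRNA ratio was 1.65 (1.18 to 2.38), called higher, and the footprint ratio 0.733 (0.659 to 0.815), below 1 but under the fold threshold. The mRNA call ended at 1.36 without the 20 most abundant genes, at 1.25 with the upper quartile and at 1.05 with the listed totals. The mRNA direction turned with the authors' deposited scaling constants, to a ratio of 0.894 (0.639 to 1.29). With those constants the footprint ratio was called lower, at 0.607 (0.546 to 0.675).

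Capn3, the gene of calpain 3, had a higher ratio in footprints than in mRNA, as Dmd did and unlike Utrn, Dag1, Lama2 and Itgb1. For Dmd the footprint ratio over the mRNA ratio was 1.32 (0.827 to 2.12) under TMM, an interval that held 1. Capn3 had 703 reads in treated mRNA and 33 in untreated mRNA, or 208 and 211 CPM, and those levels overlapped. Its footprints numbered 364 in the treated and 460 in the untreated library, or 221 and 135 CPM, with intervals apart. The mRNA ratio was 0.988 (0.697 to 1.45) and the footprint ratio 1.64 (1.42 to 1.88), called higher. With the deposited constants the footprint ratio was 1.36 (1.18 to 1.56), no longer called, and the mRNA ratio was 0.536 (0.378 to 0.785), called lower. The mRNA ratio was also called lower with the listed totals, at 0.628 (0.443 to 0.919).

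**Figure D2:**
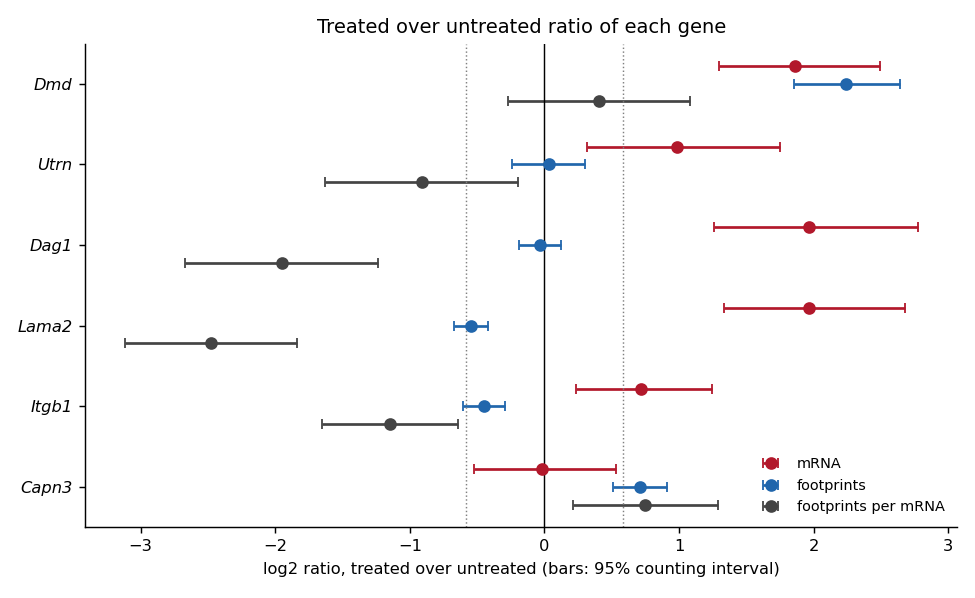
Treated over untreated log2 ratio of each gene in mRNA, footprints and footprints per mRNA, with 95% counting intervals (1 library per group); dotted lines mark the 1.5-fold threshold. The mRNA points of Dmd, Dag1 and Lama2 lie between 1.86 and 1.97, while of these only Dmd, at 2.24, has a footprint point past the threshold.

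Across the set, 5 of the 6 genes were called higher in treated mRNA and 0 lower. Over all 996 genes compared, 31.8% were called higher and 24.8% lower, 56.6% together. That split moved to 14.9% higher and 46.6% lower with the listed totals and to 20.6% higher and 37.0% lower with the upper quartile, and 54.5% were called lower with the deposited constants. In footprints, Dmd and Capn3, 2 of the 6 genes, were called higher and 0 lower, where 19.9% of all genes compared were called higher and 26.2% lower, 46.1% together. These shares were 11.4% and 36.5% with the deposited constants. The median log2 ratio of the 6 genes was 1.42 in mRNA, against 0.06 over all genes compared, and it was −0.00033 in footprints, against −0.02 over all genes. Scaling shifted all mRNA ratios together, and the median of all genes ran from 0.06 with TMM to −0.82 with the deposited constants. Relative to that median, a difference that scaling leaves as it is, the mRNA log2 ratio was 1.91 for Lama2, 1.90 for Dag1, 1.80 for Dmd, 0.93 for Utrn, 0.66 for Itgb1 and −0.08 for Capn3. The corresponding footprint values were 2.26 for Dmd, 0.73 for Capn3, 0.05 for Utrn, −0.01 for Dag1, −0.43 for Itgb1 and −0.53 for Lama2. The ratios of Dmd, Dag1 and Lama2 were called higher in mRNA under each of the 6 scalings, with log2 ratios of 0.98 for Dmd and 1.08 for both Dag1 and Lama2 under the deposited constants, whereas 3 genes in all were called higher with the listed totals, the upper quartile and the deposited constants.

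**Figure D3:**
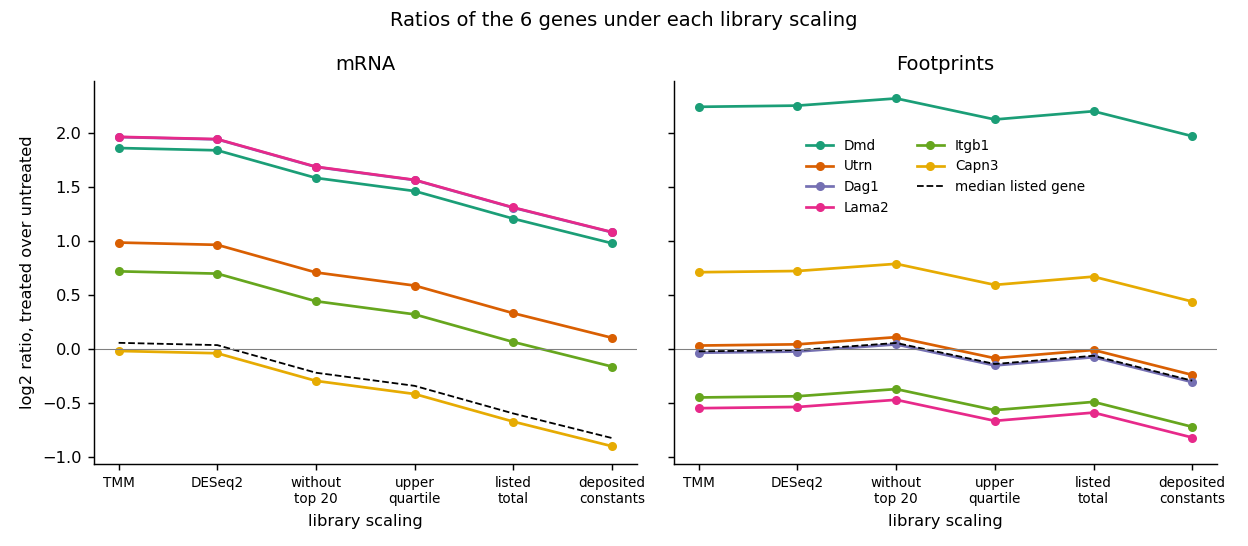
log2 ratio, treated over untreated, of the 6 genes in mRNA and in footprints under 6 library scalings, with the median of all compared genes dashed. In mRNA all lines descend together, so that Itgb1 crosses 0 with the deposited constants; Dag1 lies under Lama2 there.

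The 15 pairs of genes were also compared by the change of their ratio within a library, which needs no scaling. In mRNA the interval of this change excluded 1 in 11 of 15 pairs, without adjustment for the number of pairs. No fold threshold was applied to the pairs, and the share of separated pairs over all listed genes was not computed. Dmd, Dag1 and Lama2 were not separated from one another, with Dmd over Dag1 at 0.942 (0.505 to 1.76), Dmd over Lama2 at 0.935 (0.521 to 1.68) and Dag1 over Lama2 at 0.992 (0.517 to 1.91). These intervals are wide, and none shows that the genes changed alike. Utrn over Itgb1, at 1.19 (0.672 to 2.10), was the remaining pair whose interval held 1. Capn3 stood lowest, with Dmd over Capn3 at 3.66 (2.17 to 6.17). In footprints 13 of 15 pairs were separated, and 5 of these 13 were the pairs that contain Dmd. Dmd was higher against each of the other genes, from 2.88-fold against Capn3 (2.14 to 3.87) to 6.89-fold against Lama2 (5.23 to 9.08). The footprint pairs that were not separated were Utrn with Dag1, at 1.05 (0.849 to 1.30), and Lama2 with Itgb1, at 0.933 (0.815 to 1.07). Of the separated footprint pairs, Utrn over Lama2, at 1.496, and Utrn over Itgb1, at 1.40, lay under 1.5-fold. So did Dag1 over Lama2, at 1.43, and Dag1 over Itgb1, at 1.33.

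**Figure D4:**
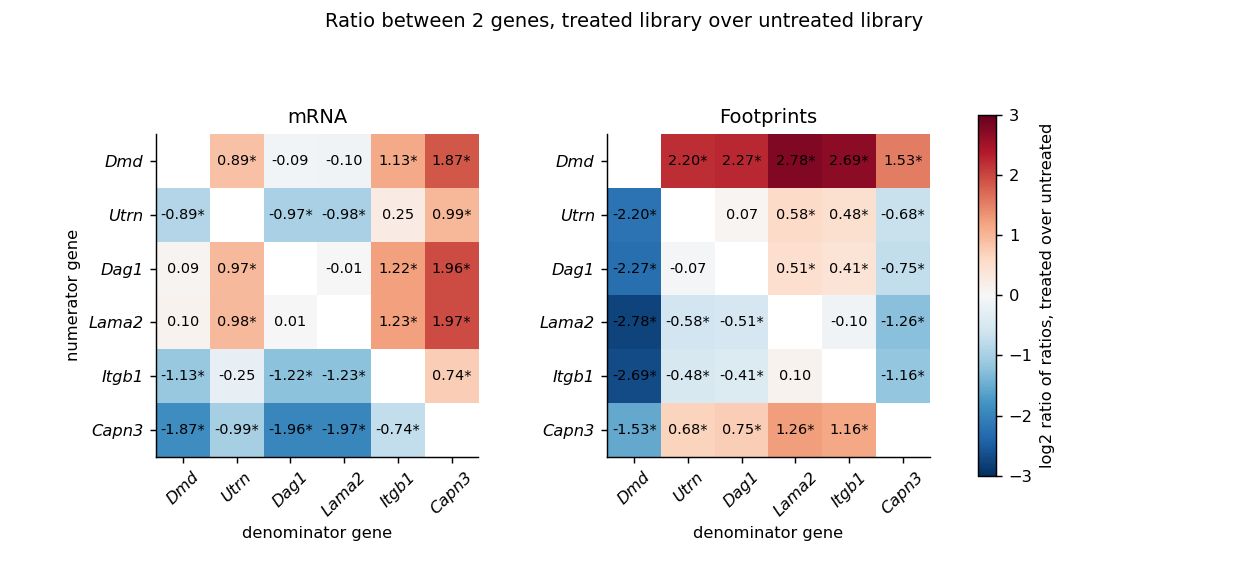
log2 change, treated over untreated, of the within-library ratio of the row gene to the column gene, for mRNA (left) and footprints (right); an asterisk marks a 95% counting interval that excludes no change. The Dmd row in footprints runs from 1.53 against Capn3 to 2.78 against Lama2.

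Footprints per mRNA, the number of ribosome-protected reads for a given amount of transcript, were then compared within each condition. Transcript length largely cancels in this quantity. Untranslated sequence can add to mRNA reads alone, which would lower the value, but whether such reads were counted is not stated. The part of untranslated sequence in the values below was not tested. Dmd had the lowest value of the 6 genes in both conditions, at 0.192 (0.165 to 0.224) in treated and 0.145 (0.0930 to 0.227) in untreated muscle on the TMM scale. These values stood at percentiles 6.20 and 1.40 of the 1000 genes in treated and untreated muscle. Lama2 was at 0.853 (0.781 to 0.931) in treated and 4.75 (3.07 to 7.33) in untreated muscle, and its percentile was 42.3 in treated against 97.7 in untreated muscle. Dag1 was at 0.756 (0.682 to 0.838) in treated and 2.93 (1.80 to 4.76) in untreated muscle. Itgb1 was at 0.777 (0.699 to 0.864) in treated and 1.72 (1.23 to 2.40) in untreated muscle. Utrn was at 0.460 (0.390 to 0.543) in treated and 0.867 (0.543 to 1.38) in untreated muscle. Capn3 was at 1.06 (0.937 to 1.21) in treated and 0.632 (0.445 to 0.898) in untreated muscle.

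The treated over untreated ratio of footprints per mRNA was called lower in 4 of the 6 genes and higher in 1, where 31.9% of all 995 genes compared were called lower and 26.0% higher, 57.9% together. With the listed totals 15.8% were called lower and 44.6% higher. It was 0.180 (0.115 to 0.280) for Lama2, 0.258 (0.157 to 0.425) for Dag1, 0.452 (0.318 to 0.641) for Itgb1 and 0.531 (0.323 to 0.872) for Utrn. The calls of Lama2 and Dag1 stood under all 6 scalings, though the ratios were 0.275 and 0.395 with the listed totals. Those of Utrn and Itgb1 did not, and their ratios there were 0.812 (0.495 to 1.33) and 0.691 (0.487 to 0.980). Capn3 was called higher under all 6 scalings, at 1.68 (1.16 to 2.44) with TMM and up to 2.57 (1.77 to 3.74) with the listed totals. The Dmd ratio of 1.32 (0.827 to 2.12) was not called under TMM. It was called higher under 4 of the 6 scalings, and reached 2.03 (1.27 to 3.24) with the listed totals. All these values rest on the 16 to 35 reads of the untreated mRNA library.

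Dystrophin, utrophin and the laminin chain are very large proteins, and other genes of very large proteins moved in these libraries too. A list of 28 such genes, among them Ttn, Neb, Ryr1, Dst and Huwe1, was drawn up after their values had been seen. In treated mRNA 24 of the 28 were called higher and 0 lower, with quartiles of the log2 ratio at 0.96 and 2.11. In footprints 13 were called higher and 2 lower, with a median of 0.41, and in footprints per mRNA 22 were called lower and 0 higher, with a median of −1.16. Over all genes 31.8% were called higher and 24.8% lower in mRNA, and 19.9% and 26.2% in footprints. In footprints per mRNA these shares were 26.0% and 31.9%. With the deposited constants the mRNA count of the list was 14 higher and 1 lower, and the footprint count 6 higher and 6 lower. The count for footprints per mRNA was then 1 higher and 14 lower. The mRNA ratios of Dmd, Lama2 and Utrn lay inside the range of this list, with 10, 9 and 21 of its 28 genes above them. The Dmd footprint log2 ratio of 2.24 lay above that of all 28, of which Xirp2 came nearest at 2.11. In footprints per mRNA the Dmd log2 ratio of 0.40 also lay above all 28. Genes with 16 to 35 untreated mRNA reads, whatever their size, had a median mRNA log2 ratio of 0.24, with 35.3% called higher. The part of transcript size and of read depth in the results of the 6 genes was not tested.

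**Figure D5:**
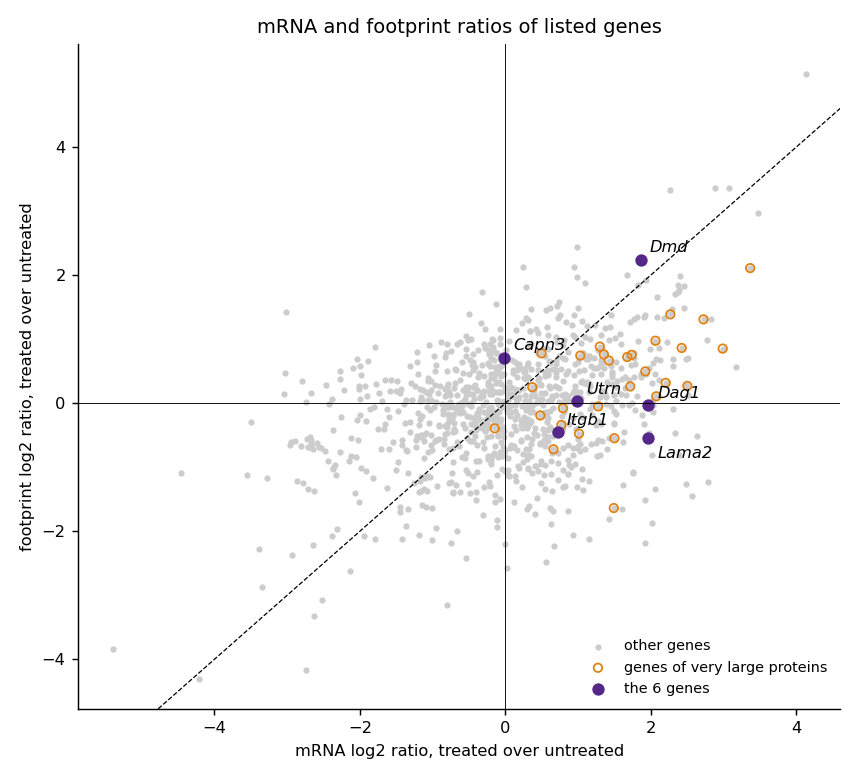
Footprint log2 ratio against mRNA log2 ratio, treated over untreated, for all genes over the read minimum in both readouts (grey), genes of very large proteins (open circles) and the 6 genes (purple); the dashed line marks equal ratios. Dmd lies above that line at 1.86 in mRNA and 2.24 in footprints, and Lama2 and Dag1 lie far below it.

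The genes whose levels over the 4 libraries were most like those of each gene were found by the distance between log2 scaled levels centred per gene, among 994 other genes. The nearest to Dmd was Hfe2, which encodes the muscle and liver protein hemojuvelin, at a distance of 0.50. It had 1676 reads in treated and 15 in untreated mRNA, and 108 reads in treated and 67 in untreated footprints. Next came Ankrd23, an ankyrin repeat protein of the sarcomere, at 0.69, Pde4dip, a scaffold that binds a phosphodiesterase, at 1.09, Xirp2, an actin-binding protein, at 1.16, and Mll3, a histone methyltransferase, at 1.17. The other genes had nearer neighbours. Those of Utrn included Cox7c, a subunit of cytochrome c oxidase, and Csnk2a1, a catalytic subunit of casein kinase, both at 0.16. Those of Dag1 were Nrd1 at 0.13, Pcm1 at 0.22 and Gaa, the lysosomal glucosidase gene, at 0.31. Lama2 was nearest to the lipoprotein receptor gene Lrp1 at 0.32, to Pcm1 at 0.40 and to Tnxb, which encodes the matrix protein tenascin-X, at 0.45. Itgb1 was nearest to Rps26 at 0.12, the cadherin gene Cdh13 at 0.14 and the tropomyosin gene Tpm1 at 0.15. Capn3 was nearest to Eif2s3y at 0.13, to Cpt1b, the muscle carnitine palmitoyltransferase, at 0.15 and to Smu1 at 0.17.

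Of the rest of the dystrophin-glycoprotein complex, Sgca and the dystrobrevin gene Dtna are described here. Of the 6 genes of the complex in the table, Dmd, Utrn and Dag1 included, 5 were called higher in mRNA and 0 lower, but 2 higher with the listed totals. Over all genes 31.8% were called higher and 24.8% lower in mRNA, and 19.9% higher and 26.2% lower in footprints. The counts of this and the following lists stand against those shares. In footprints 1 of the 6, Dmd, was called higher and 0 lower, and up to 3 were called higher under the other scalings. Sgca, a sarcoglycan of the membrane complex, had an mRNA ratio of 1.91 (1.23 to 3.14) and a footprint ratio of 1.12 (0.971 to 1.29). Dtna, a cytoplasmic partner of dystrophin, had a footprint ratio of 1.49 (1.21 to 1.84) and an mRNA ratio of 1.23 (0.746 to 2.17). The footprint ratios of Sgca and Dtna thus lay below the 4.74 of Dmd, with intervals that did not reach its lower bound of 3.62. No gene of the 23 symbols chosen for the glycosylation of dystroglycan was in the table.

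Among laminin and basement membrane genes 9 were listed, and footprints were called lower for 6 and higher for 0 of them, under TMM and with at least 6 called lower under every other scaling. In mRNA 4 were called higher and 1 lower, turning to 2 higher and 3 lower with the listed totals. Lamc1, the gamma chain that joins Lama2 in laminin, had the same split as Lama2, with an mRNA ratio of 3.09 (1.99 to 5.07) and a footprint ratio of 0.735 (0.682 to 0.792). The laminin beta chain genes Lamb1 and Lamb2 were not called in mRNA, at 1.40 (0.880 to 2.39) and 1.24 (0.900 to 1.75). In footprints Lamb1 was called lower at 0.534 (0.471 to 0.604), and Lamb2 was not called at 0.786 (0.722 to 0.855). Nid1, which encodes the laminin-binding linker nidogen, had an mRNA ratio of 1.73 (1.18 to 2.67) and a footprint ratio of 0.403 (0.368 to 0.440). Sparc, a matrix glycoprotein that binds collagen, was called lower in both, at 0.519 (0.388 to 0.707) in mRNA and 0.259 (0.241 to 0.277) in footprints. The basement membrane collagen Col4a1 was called lower in footprints alone, at 0.534 (0.488 to 0.585). Footprints per mRNA were called lower for 8 of the 9 genes, where 31.9% of all genes were called lower. With the listed totals they were called lower for 5, where the share of all genes was 15.8%. Connective tissue cells also make basement membrane proteins, and the fibroblast markers summed to 5389 CPM in treated footprints and 24774 in untreated footprints, and their part in these values was not tested.

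Of integrin and focal adhesion genes 7 were listed, of which 2 were called higher and 1 lower in mRNA, and 0 higher and 2 lower in footprints. With the deposited constants the counts were 0 higher and 4 lower in mRNA, and 0 higher and 7 lower in footprints. Itga7, the alpha chain that pairs with Itgb1 in muscle, had an mRNA ratio of 0.842 (0.567 to 1.30) and a footprint ratio of 0.768 (0.671 to 0.877). Neither Itga7 nor Itgb1 was called in footprints under TMM. Itgb1bp2, the muscle protein melusin that binds the integrin beta chain, was called lower in both readouts, at 0.323 (0.242 to 0.439) in mRNA and 0.401 (0.349 to 0.459) in footprints. Itgb1bp3 was called lower in footprints at 0.359 (0.258 to 0.491), and Tln2, a talin that ties integrins to actin, was called higher in mRNA at 1.71 (1.12 to 2.74).

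The costamere and membrane skeleton, the lattice under the membrane to which dystrophin belongs, had 11 listed genes. In mRNA 6 were called higher and 1 lower, and 4 higher and 3 lower with the listed totals. In footprints 3 were called higher and 1 lower, and 1 higher and 3 lower with the deposited constants. The beta spectrin genes Spnb1 and Spnb2, parts of the membrane skeleton, had footprint ratios of 1.73 (1.53 to 1.95) and 1.41 (1.27 to 1.56), and their mRNA ratios were 3.40 (2.30 to 5.27) and 3.80 (2.62 to 5.72). Dst, a large linker of cytoskeletal filaments, had the largest ratios of the list, at 6.61 (5.47 to 8.06) in mRNA and 2.48 (2.32 to 2.65) in footprints. Des, the intermediate filament desmin, was called lower in both, at 0.499 (0.464 to 0.538) in mRNA and 0.228 (0.217 to 0.239) in footprints. Within this list too no footprint ratio reached that of Dmd.

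Of the calpain genes besides Capn3, the shared small subunit Capns1, the calpain inhibitor Cast and the noncatalytic relative Capn6 were listed. In footprints Capn3 was the 1 of 4 called higher, and Capns1 at 0.625 (0.548 to 0.711) and Capn6 at 0.145 (0.0907 to 0.222) were called lower. The intervals of Capns1 and Cast, whose footprint ratio was 1.05 (0.910 to 1.21), lay below that of Capn3. The footprint count was 0 higher and 2 lower with the deposited constants. In mRNA Cast was called higher at 1.76 (1.15 to 2.87), which ended with the listed totals, and Capns1 had a ratio of 0.983 (0.596 to 1.74). Capn6 had 36 reads over both mRNA libraries, under the minimum, and no mRNA call was made.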

How the data were processed

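mRNA and ribosome footprints of tibialis anterior were analysed, 1 library per group. The authors deposited raw read counts for 1000 genes, per the file headers. The authors' normalized values beside them are each count multiplied by a library constant (100% of genes within 0.1) and were read as CPM from the values, which no label states. Trimmomatic, STAR, edgeR and mm9 are named, without roles, in the submitters' processing notes. The counting tool, strand setting and treatment of multiply matching reads are not stated. Per the labels' protocols, mRNA libraries used a stranded kit for total RNA and footprint libraries a small RNA kit.

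TMM scaling used edgeR 4.0.16 in R 4.3.3, and intervals used scipy 1.17.1. Ratios have exact conditional binomial 95% intervals. Footprints per mRNA and pair comparisons add 0.5 to each count and have normal intervals on the log scale. No test between conditions could be fitted with 1 library a group. Reads carry no molecular identifiers, and intervals cover counting error alone. Scripts were tested on simulated data.

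Besides the 6 genes, the text names up to 4 called genes per pathway list, those with the interval bound farthest from no difference, and the genes nearest to each of the 6. Some genes that this rule names are not reported here. Dtna, Lamb1, Lamb2, Itga7, Anxa2, Anxa7 and Murc were named after their values were seen. The members and lists were chosen with earlier results of these data known. Alternatives were DESeq2 1.42.0 size factors, listed totals, the upper quartile, totals without the 20 most abundant genes, the deposited constants, no minimum or 200 reads, a 2-fold threshold and 5 added to each count. Levels per coding length and ratios by length were not run, since no lengths of build mm9 were used here. Promoters are from RefSeq on GRCm38.p6, and no coordinates were converted.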

Additional observations from a re-analysis of the deposited data

How the results depend on the processing

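No paired analysis was possible because each group has 1 library, and no library could be left out for the same reason. DESeq2 size factors, no minimum and a minimum of 200 reads left every count of called genes among the 6 as it was. With the listed totals 3 genes were called higher and 1 lower in mRNA, 2 higher and 1 lower in footprints, and 2 higher and 2 lower in footprints per mRNA. With the upper quartile 3 were called higher in mRNA, 1 lower in footprints, and 2 higher and 3 lower in footprints per mRNA. Without the 20 most abundant genes 4 were called higher in mRNA, and 2 higher and 3 lower in footprints per mRNA. With the deposited constants 3 were called higher and 1 lower in mRNA, 1 higher and 2 lower in footprints, and 2 higher and 2 lower in footprints per mRNA. A 2-fold threshold left 3 genes higher in mRNA, 1 higher in footprints, and 0 higher and 3 lower in footprints per mRNA. With 5 added to each count 1 was called higher and 3 lower in footprints per mRNA, where Utrn, at 0.665 (0.423 to 1.05), was no longer called. The Dmd mRNA log2 ratio of 1.86 was 1.21 with the listed totals and 0.98 with the deposited constants, called higher in both. That of Utrn was 0.10 with the deposited constants and no longer called. That of Itgb1 reversed to −0.16 with them. The changes follow from the scaling constants, which shift all genes of a library alike, while Dmd over Utrn and the other pair comparisons need none, and 5 added to each count left the number of separated pairs at 11 in mRNA and 13 in footprints. Over all genes compared, the 317 called higher and 247 called lower in mRNA were 148 and 464 with the listed totals, 205 and 369 with the upper quartile, and 110 and 543 with the deposited constants. In footprints per mRNA the 259 called higher and 317 called lower were 444 and 157 with the listed totals, 444 and 158 with the deposited constants, and 328 and 252 with 5 added. In footprints the 199 called higher were 114 with the deposited constants, and at 2-fold 81 were called higher and 143, against 262, lower. A minimum of 200 reads left 160 called lower in mRNA. Of 96 gene ratios under alternatives, 71 kept their call. Depth limits mRNA more than footprints: the median 95% interval over all genes reached 0.62 log2 units to either side in mRNA, 0.21 in footprints and 0.63 in footprints per mRNA.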

Other observations

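Genes of membrane repair, a process that reseals the torn fibre surface, were listed for 9 symbols. In mRNA 3 were called higher and 5 lower in treated muscle, where 31.8% of all genes were called higher and 24.8% lower. In footprints 2 were called higher and 1 lower, where the shares of all genes were 19.9% and 26.2%. The annexins, calcium-dependent membrane-binding proteins, made up 4 of the 5 lower mRNAs, with Anxa1 at a ratio of 0.381 (0.247 to 0.616) and Anxa2 at 0.392 (0.256 to 0.627), while Anxa7 was not called at 0.885 (0.518 to 1.64). Their footprints did not move together, with Anxa1 at 0.990 (0.867 to 1.13) and Anxa2 at 0.594 (0.515 to 0.684). Trim72, the muscle repair protein also called MG53, had the lowest mRNA ratio of the list, 0.333 (0.239 to 0.473), beside a footprint ratio of 1.14 (1.02 to 1.26). Ano5, a membrane protein mutated in a muscular dystrophy, was called higher in both, at 4.19 (2.49 to 7.68) in mRNA and 1.61 (1.41 to 1.85) in footprints. Murc, a caveolar coat protein of muscle, was also called higher in both, at 2.49 (1.55 to 4.29) and 1.53 (1.34 to 1.74). Ahnak, a very large protein that partners annexin, was higher in mRNA at 3.29 (2.88 to 3.77) and not called in footprints at 1.20 (1.15 to 1.25). With the deposited constants 2 were called higher and 6 lower in mRNA, and 0 higher and 2 lower in footprints, and with the upper quartile 0 were called higher in footprints. Annexins are also expressed by macrophages and fibroblasts. All 4 listed macrophage markers were called lower in treated mRNA, while of 6 fibroblast markers 3 were called lower and 2 higher, and the part of those cells was not tested.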
